A study of Mus musculus with 12 samples.

Results

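The genes described here encode the mouse MHC class II antigen presentation machinery: the chains H2-Aa, H2-Ab1 and H2-Eb1, the peptide-exchange chains H2-DMa and H2-DMb1, the invariant chain Cd74 and the transactivator Ciita, which the array lists under its older name C2ta. They were taken by gene name as a known pathway, with no threshold on their values, and all 7 were on the array, with 11 of its 41174 probes. Class II molecules are pairs of an alpha and a beta chain that carry peptides from taken-up proteins to the cell surface, where CD4 T cells read them. The invariant chain fills the groove until lysosomal proteases degrade it, H2-DM then exchanges its last fragment for a peptide, and CIITA switches the genes on through factors bound to the X and Y boxes of their promoters. In the testis macrophages are the best known class II-bearing cells.

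RNA came from Leydig cells, which make testosterone between the tubules of the testis, cut by laser from frozen sections of 1 testis per mouse and amplified before labelling. The DEHP mice, numbered 1 and 4, were adult male C57BL/6J animals given di-(2-ethylhexyl) phthalate, a plasticiser, by gavage in corn oil at 200 mg per kg per day for 21 days. The vehicle mice, numbered 1, 2 and 4, were of the same strain, sex and age of 21 weeks and had corn oil alone. Each DEHP mouse was hybridised with each vehicle mouse on 2 two-colour arrays with the dyes exchanged, so that 12 arrays gave 6 readings of each DEHP mouse and 4 of each vehicle mouse. The mouse is the replicate: n = 2 DEHP mice and n = 3 vehicle mice. C57BL/6 mice make no H2-Ea protein and therefore show H2-A but no H2-E on their cells, which limits what a transcript of H2-Eb1 stands for in them.

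The scanner software called between 45.1% and 54.0% of the probes well above background in the Cy5 channel and between 35.5% and 45.8% in the Cy3 channel, and 15827 genes were tested. The Leydig cell markers Star, Cyp11a1 and Insl3 were well above background in all 24 readings, as were the spermatid genes Prm1 and Tnp1 and the macrophage genes Adgre1 and Csf1r. The captured material thus carried its labelled cell type together with RNA of spermatids and macrophages in both groups. In such material fewer cells of a type and less RNA per cell cannot be told apart.

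Most class II transcripts lay at or near the detection limit, and 1 did not. H2-DMb1 was well above background in 12 of 12 DEHP readings and 12 of 12 vehicle readings, while both H2-Aa probes and the Ciita probe were well above it in 0 of 12 DEHP and 0 of 12 vehicle readings. Cd74 reached it in 10 DEHP and 10 vehicle readings. The scale for these levels came from the 153 negative control spots of each array, whose net signal (mean signal minus local background, in scanner units) had a 95th percentile between 8.02 and 88.6 over the readings, with a median of 19.

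**Figure D1:**
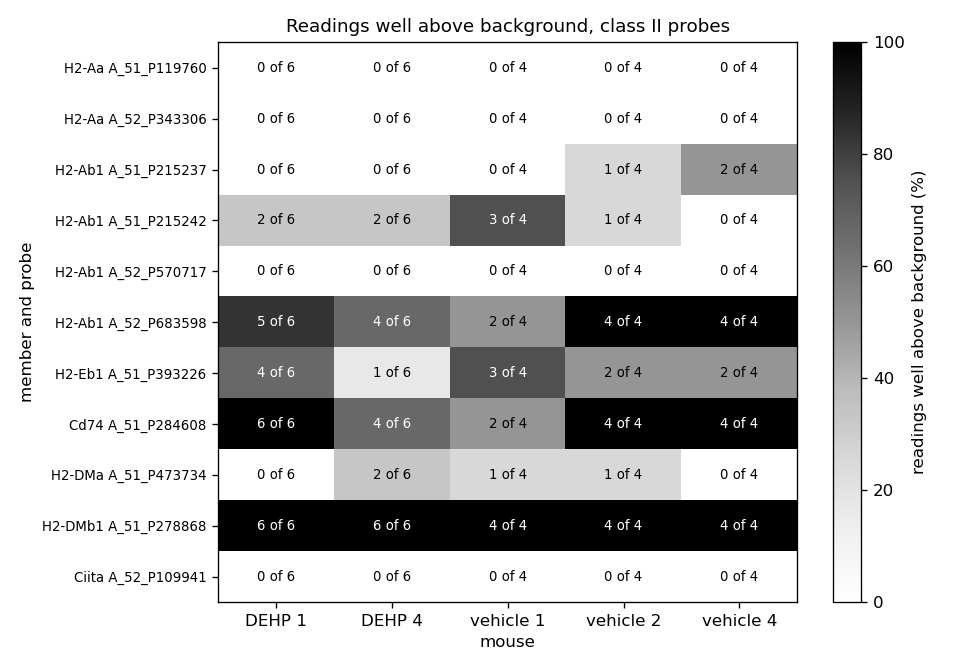
Readings in which the scanner software called a class II probe well above background, as counts and grey shade (percent of readings), for each probe (rows) and mouse (columns, DEHP mice at the left). H2-DMb1 is dark in all 5 mice, H2-Aa and Ciita are white in all 5, and H2-Ab1 is dark for 1 of its 4 probes.

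H2-Aa encodes the alpha chain of H2-A. Its first probe had a median net signal of 12.1 in DEHP readings (4.03 to 25.2) and 8.52 in vehicle readings (1.84 to 43.6). The second probe, at chr17:32362310-32362369 on the minus strand (mm7, the build of the files), had 12 (6.34 to 18.3) in DEHP and 9.5 (1.48 to 24.9) in vehicle readings. Neither was well above background in any mouse, so H2-Aa has no measured level in either group and did not enter the test.

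H2-Ab1, the beta chain of H2-A, had 4 probes, and they did not behave alike. The probe A_52_P683598 (chr17:32346939-32346998, plus strand) was well above background in 9 of 12 DEHP and 10 of 12 vehicle readings, with a median net signal of 66.2 (29.3 to 107) in DEHP and 58.9 (24.3 to 125) in vehicle readings. It was the probe kept for the test. A_51_P215237 (chr17:32345268-32345327), printed on 10 spots of each array, was well above background in 0 DEHP and 3 vehicle readings, and the bound this allows lies under 1-fold, so no fold is given.

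The other two H2-Ab1 probes read the same stretch of the message, and their sequences are shown because they differ by 2 letters there. This stretch encodes part of the peptide-binding domain, which varies widely between mouse strains. A_52_P570717, which has no genome position in the files, shares 31 bases with A_51_P215242, placed at chr17:32342603-32342662 on the C57BL/6J reference. The differences are A34T and A49T, counted from 1 at the 5′ end of A_52_P570717 with its base first. Capitals mark these bases.
A_52_P570717: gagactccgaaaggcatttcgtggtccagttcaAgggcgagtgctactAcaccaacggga
A_51_P215242: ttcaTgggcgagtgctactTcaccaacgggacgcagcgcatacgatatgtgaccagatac
The probe without a genome position, A_52_P570717, was well above background in 0 of 12 DEHP and 0 of 12 vehicle readings, with median net signals of 12.6 in DEHP and 9.97 in vehicle readings. A_51_P215242 was well above it in 4 DEHP and 4 vehicle readings, with medians of 21.4 (13.6 to 130) in DEHP and 23.3 (10.4 to 53.5) in vehicle readings. Both calls of DEHP mouse 4 came from 2 arrays of 1 slide with that mouse in Cy5, at 130.3 and 103.8. Vehicle mice 1 and 2 were also called on these arrays, at 53.48 and 27.86. On the other slides DEHP mouse 4 read 13.65 to 25.15. Both probes missed the filter for the test, and no level of one probe is set against the other.

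H2-Eb1 encodes the beta chain of H2-E. Its only probe, which the files place across a gap between 32392430 and 32392891 on chromosome 17 (plus strand), read 60 bases from 2 separate stretches of the genome.
A_51_P393226: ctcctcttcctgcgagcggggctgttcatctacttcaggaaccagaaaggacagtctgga
It was well above background in 5 of 12 DEHP and 7 of 12 vehicle readings, with a median net signal of 27 (20 to 54.8) in DEHP and 26.3 (14.7 to 127) in vehicle readings. Of its 12 readings well above background, 10 were in Cy5 and 2 in Cy3, so its detection moved with the dye. H2-Ea, the partner chain that this strain does not make, was well above background in 0 DEHP readings and 1 vehicle reading.

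H2-DMa and H2-DMb1 are the alpha and beta chain of H2-DM and are needed as a pair, yet their probes gave very different calls. H2-DMa (between 32217439 and 32218002 on chromosome 17) was well above background in 2 DEHP and 2 vehicle readings, with a median net signal of 15 (10.3 to 105) in DEHP and 17.2 (9.07 to 36.9) in vehicle readings. All of these calls came from the 2 arrays of 1 slide with DEHP mouse 4 in Cy5 against vehicle mice 1 and 2. On the other slides DEHP mouse 4 read 11.5 to 20.3. H2-DMb1 (chr17:32236685-32236744) had 3690 (1340 to 12400) in DEHP and 2820 (1160 to 4310) in vehicle readings. Its neighbouring paralogue H2-DMb2 had 2 probes, and neither was well above background in any reading. The H2-DMb1 signal rests on 1 probe, and which transcript it reads was not tested.

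Cd74 encodes the invariant chain. Its probe (chr18:61201860-61201917) had a median net signal of 67.6 (32 to 121) in DEHP and 49.9 (17.7 to 142) in vehicle readings. By mouse the median was 82.3 in DEHP mouse 1 and 43.3 in DEHP mouse 4, against 20.8, 48.9 and 123 in vehicle mice 1, 2 and 4. The lowest and the highest median thus both lay among the vehicle mice. Ciita, the regulator, had 10.4 (1.37 to 21.4) in DEHP and 8.26 (1.41 to 57.3) in vehicle readings at chr16:10203747-10203806, and no reading exceeded the 95th percentile of its negative controls.

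**Figure D2:**
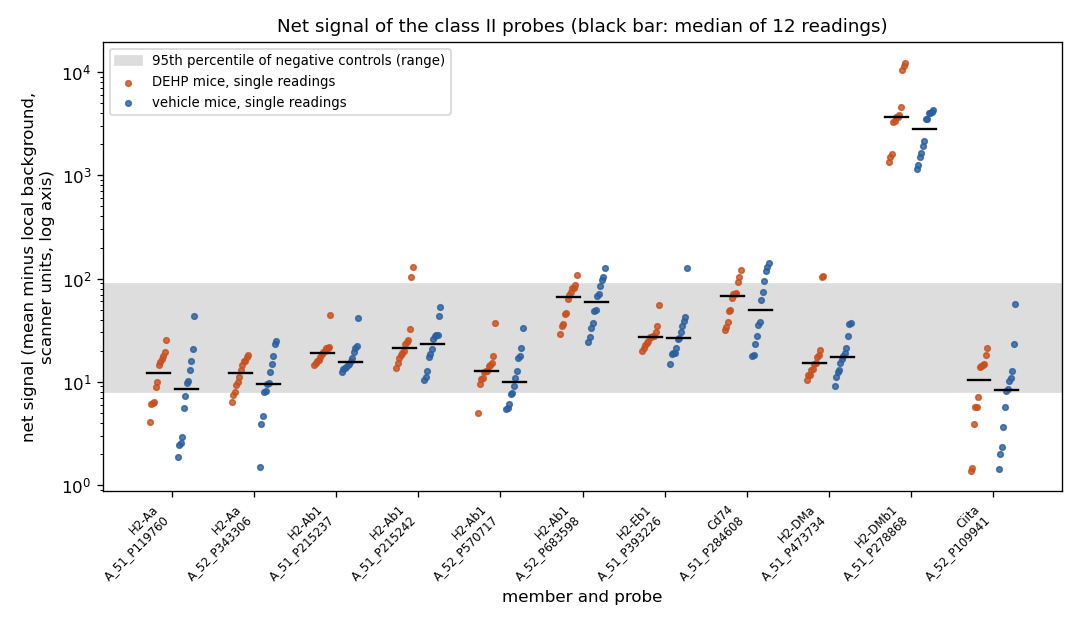
Net signal of each class II probe on a log axis in scanner units, 1 point per reading, DEHP (orange) left of vehicle (blue), with the median of 12 readings as a black bar. The grey band spans the 95th percentiles of the negative controls, 8.02 to 88.6. H2-DMb1 lies far above the band, and the medians of the other 10 probes lie within it. The band joins all readings. Against the controls of the same reading, H2-Ab1 probe A_52_P683598 was above the percentile in 23 of 24 readings, Cd74 in 21 and H2-Eb1 in 18. The remaining dim probes were above it in 0 to 15 readings.

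Promoters are shown because members with such different detection are thought to share their control elements. RefSeq's table (GRCm38.p6, the 250 bases before each start) held H2-Aa, H2-Eb1, H2-DMb1 and 2 starts of H2-DMa; H2-Ab1, Cd74 and Ciita were not among them. Both strands were searched for ATTGG, the Y box core, and for an X box core, written AGNNAC followed by NNATG; in these promoters no match of one overlapped a match of the other. ATTGG was found in 33.8% of the 32544 promoter windows, the X box core in 2.61%, and both in 1.08%. Capitals mark the matches, and CCAAT is ATTGG on the other strand.
H2-DMb1, chr17:34152941-34153190, plus strand: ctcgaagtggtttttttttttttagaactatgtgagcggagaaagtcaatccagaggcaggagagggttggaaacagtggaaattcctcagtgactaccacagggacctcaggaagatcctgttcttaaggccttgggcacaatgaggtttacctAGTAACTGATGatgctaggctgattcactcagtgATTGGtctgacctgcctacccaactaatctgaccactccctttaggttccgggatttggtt
H2-Eb1, chr17:34305617-34305866, plus strand: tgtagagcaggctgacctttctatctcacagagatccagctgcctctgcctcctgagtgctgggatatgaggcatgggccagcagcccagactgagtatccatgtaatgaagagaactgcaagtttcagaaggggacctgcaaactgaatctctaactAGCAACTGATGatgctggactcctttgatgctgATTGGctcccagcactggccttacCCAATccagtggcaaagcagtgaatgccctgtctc
H2-Aa, chr17:34287824-34288073, minus strand: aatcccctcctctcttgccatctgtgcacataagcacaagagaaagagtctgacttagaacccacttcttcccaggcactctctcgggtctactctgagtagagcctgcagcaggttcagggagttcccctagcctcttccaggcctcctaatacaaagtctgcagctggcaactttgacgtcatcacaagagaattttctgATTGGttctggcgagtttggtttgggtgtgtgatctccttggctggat
H2-DMb1 and H2-Eb1 each held both patterns in the same order. In H2-DMb1, AGTAACTGATG began 95 bases before the start and ATTGG 61 bases before it, with 23 bases between them. In H2-Eb1, AGCAACTGATG began 92 and ATTGG 59 bases before the start, with 22 bases between, and CCAAT lay 35 bases before it. H2-Aa held ATTGG 48 bases before its start and no X box core by these letters in this window. Of the H2-DMa starts, 1 window had ATTGG 198 bases before the start and the other had neither pattern. The bright probe of H2-DMb1 and the dim one of H2-Eb1 thus belonged to genes with the same pair of patterns at nearly the same distance. A match is a description of letters and does not show that a factor binds there.

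The main comparison asked whether class II transcripts in the captured Leydig cell material differed after DEHP. Of the 7 members, 4 passed the filter (a probe above background by that call in 50% or more of the readings of 2 or more mice): H2-Ab1, H2-Eb1, Cd74 and H2-DMb1. None of the 4 passed an adjusted p of 0.05 in limma, against 0% of all 15827 genes, of which 136 (0.859%) had an unadjusted p under 0.05 and none of them a member. The median difference of the 4 was -0.00, against -0.01 for all genes tested, on the log2 scale. Values below are log2 levels per mouse, set to a mean of 0 over the 5 mice, and a difference is DEHP minus vehicle.

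H2-DMb1 was the only one of the 4 tested members whose groups did not overlap. Its values were 0.04 and 0.63 in DEHP mice 1 and 4, against -0.39, -0.12 and -0.16 in vehicle mice 1, 2 and 4. Both DEHP mice lay above all vehicle mice, an arrangement found for 3.94% of all genes tested (9.17% with the groups apart in either direction), and DEHP mouse 1 lay close to the upper vehicle mice. The means were 0.33 ± 0.41 in DEHP and -0.22 ± 0.15 in vehicle mice (SD), and they differed by 0.56 (SE 0.25, 95% interval -0.07 to 1.18). The limma p was 0.0713 before and 1 after Benjamini-Hochberg adjustment. Leaving out DEHP mouse 4 lowered the difference to 0.26.

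On single arrays the H2-DMb1 ratio of DEHP over vehicle was above 0 on 12 of 12. With DEHP mouse 4 it ran from 0.58 to 1.13, and with DEHP mouse 1 from 0.06 to 0.49, so the ranges of the DEHP mice did not overlap. By dye the medians were 0.66 on arrays with Cy5-labelled DEHP RNA and 0.47 on those with Cy3-labelled DEHP RNA. Vehicle mice 1 and 2 shared a slide per dye orientation, where the difference was 0.70 (DEHP in Cy5) and 0.48 (DEHP in Cy3), and it was 0.49 on the slide of vehicle mouse 4. These arrays share 5 animals and are not separate replicates.

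**Figure D3:**
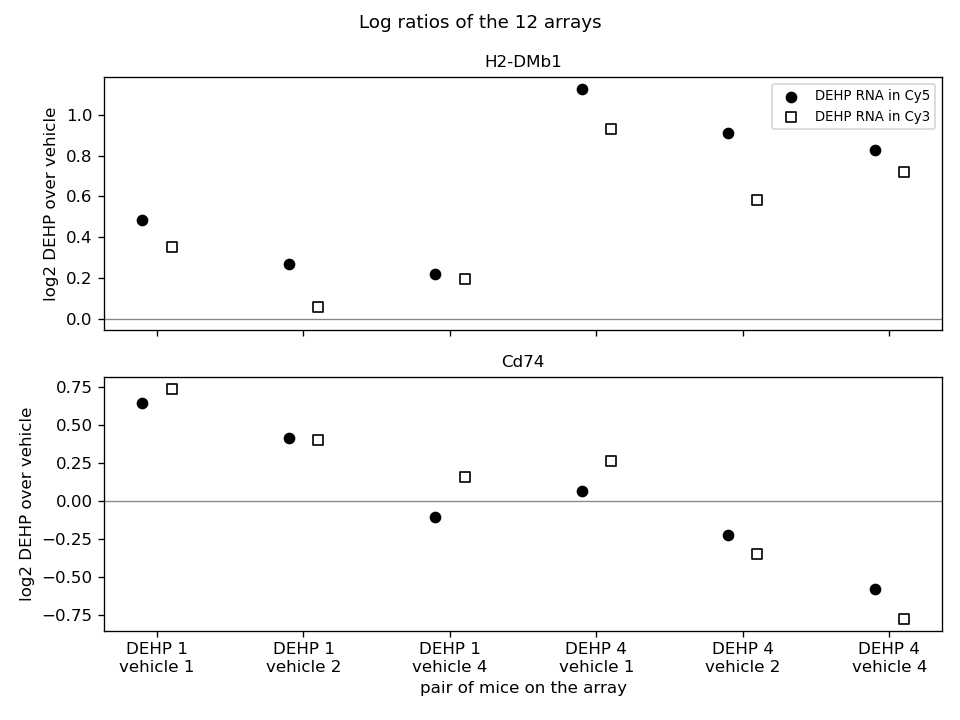
Log2 ratio of DEHP over vehicle on each of the 12 arrays for H2-DMb1 (top) and Cd74 (bottom), by pair of mice, with DEHP RNA in Cy5 (filled circles) or Cy3 (open squares). H2-DMb1 lies above 0 on all 12 arrays and highest with DEHP mouse 4; Cd74 runs from 0.74 down to -0.78 with the pair.

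Cd74 differed widely between mice, and no difference between the groups was called. Its values were 0.35 and -0.29 in DEHP mice 1 and 4, against -0.40, -0.03 and 0.36 in vehicle mice 1, 2 and 4. The group ranges overlapped almost entirely. The means were 0.03 ± 0.45 in DEHP and -0.02 ± 0.38 in vehicle mice (SD), and they differed by 0.06 (SE 0.32, interval -0.74 to 0.85, adjusted p 1 in limma). The sign turned without DEHP mouse 1 (-0.27) and without vehicle mouse 1 (-0.13). It also differed between slides, at 0.23 and 0.27 on the slides of vehicle mice 1 and 2 and -0.33 on that of vehicle mouse 4. Single-array ratios ran from 0.65 and 0.74 for DEHP mouse 1 over vehicle mouse 1 to -0.58 and -0.78 for DEHP mouse 4 over vehicle mouse 4.

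H2-Ab1 had the narrowest spread of the members tested. Its values were -0.04 and -0.03 in DEHP mice, against -0.05, 0.01 and 0.11 in vehicle mice, and the groups overlapped. The difference was -0.06 (SE 0.18, interval -0.52 to 0.39, adjusted p 1). H2-Eb1 was at -0.03 and -0.14 in DEHP mice, against -0.14, 0.00 and 0.30 in vehicle mice, and the DEHP values lay within the vehicle range. Its difference was -0.14 (SE 0.22, interval -0.67 to 0.40, adjusted p 1). Exchanging the dyes turned its sign for DEHP mouse 1 against vehicle mouse 1 (-0.35 with DEHP RNA in Cy5, 0.68 in Cy3), against vehicle mouse 2 (0.04 with DEHP RNA in Cy5, -0.11 in Cy3) and against vehicle mouse 4 (-0.87 with DEHP RNA in Cy5, 0.13 in Cy3). On the 3 slides the H2-Ab1 difference was 0.07, -0.11 and -0.14 and that of H2-Eb1 -0.13, 0.10 and -0.38, so neither kept its sign.

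For dim probes the background correction sets much of the size. With the scanner software's own background-subtracted signals the differences were -1.003 for H2-Eb1, -0.35 for H2-Ab1, 0.28 for Cd74 and 0.58 for H2-DMb1, each with an adjusted p of 1. The 3 members without a kept probe, H2-Aa, H2-DMa and Ciita, also had an adjusted p of 1 each in limma when no filter on dim probes was set. No difference is given for them: H2-Aa and Ciita were well above background in no reading, and H2-DMa in 2 of 12 DEHP and 2 of 12 vehicle readings.

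**Figure D4:**
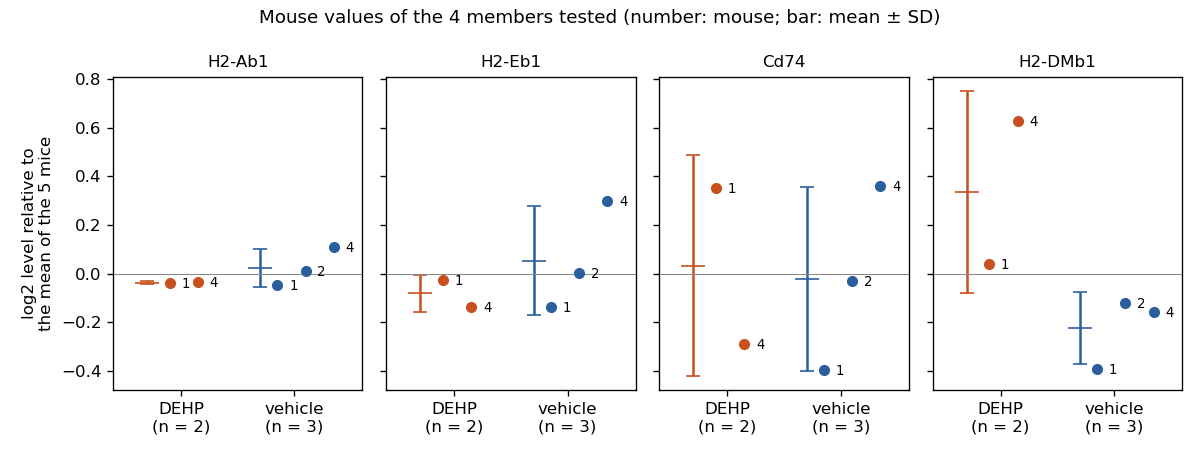
Log2 level of the 4 members tested in every mouse (0 is their mean over the 5 mice), DEHP (orange, n = 2) left of vehicle (blue, n = 3). Numbers name the mouse and bars give the mean ± SD. H2-DMb1 alone has both DEHP mice above the vehicle mice, while Cd74 spreads from -0.40 to 0.36 with mice of both groups at either end.

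Differences between single mice of 1 group were then tested over the 12 arrays, which compares extracts and not conditions. For Cd74 and H2-DMb1 the 2 DEHP mice differed, in opposite directions. DEHP mouse 4 lay below DEHP mouse 1 by a log2 difference of -0.64 for Cd74 (SE 0.06, limma adjusted p 3.14e-06) and above it by 0.59 for H2-DMb1 (SE 0.04, adjusted p 1.51e-07). With each array centred on its median in place of loess, these differences were -0.41 for Cd74 and 1.38 for H2-DMb1. H2-Ab1 (0.01, SE 0.08, adjusted p 0.942) and H2-Eb1 (-0.11, SE 0.16, adjusted p 0.555) did not pass. Of all genes tested, 77.4% passed in this comparison, 36.3% higher and 41.1% lower in DEHP mouse 4, and 2 of 4 members lies below that share.

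Among the vehicle mice Cd74 was ordered with mouse 1 lowest and mouse 4 highest, and each step passed. Vehicle mouse 1 differed from vehicle mouse 2 by -0.37 (adjusted p 0.00145, with 71% of all genes passing) and from vehicle mouse 4 by -0.76 (adjusted p 5.81e-06, 68.8%). Vehicle mouse 2 differed from vehicle mouse 4 by -0.39 (adjusted p 0.00157, 57.4%), a step that did not pass with the scanner software's processed signals (-0.45, adjusted p 0.149). H2-DMb1 was lower in vehicle mouse 1 than in mouse 2 (-0.27, adjusted p 0.000617) and mouse 4 (-0.24, adjusted p 0.00169), and mice 2 and 4 were not told apart (0.03, SE 0.05, adjusted p 0.586). These H2-DMb1 calls did not hold under every alternative. Mouse 1 against mouse 2 did not pass with array medians only (-0.06, adjusted p 0.707). In the authors' deposited table H2-DMb1 had 8 values, against 12 arrays here. There neither mouse 1 against mouse 2 (-0.09, adjusted p 0.419) nor mouse 1 against mouse 4 (-0.14, adjusted p 0.142) passed in limma. Fewer values and another normalization cannot be told apart in that table. H2-Ab1 passed in none of these 3 comparisons, and H2-Eb1 came nearest between vehicle mice 1 and 4 (-0.44, SE 0.20, adjusted p 0.073). Between vehicle mice 1 and 4, H2-Ab1 did pass with the processed signals (-0.78, adjusted p 0.00786) and with array medians only (-0.26, adjusted p 0.0438), as did H2-Eb1 with array medians only (-0.38, adjusted p 0.0343).

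Genes that act around class II molecules were described next. Of 14 accessory and paralogue genes 8 were tested, 3 above and 5 below 0 in DEHP minus vehicle, with a median of -0.15 and none called. The lysosomal proteases Ctss, which trims the invariant chain, Ctsb, Ctsd, Ctsl and Lgmn were well above background in all readings. The lowest p among the 8 belonged to Marchf1, a ubiquitin ligase that removes class II from the surface (0.23, SE 0.24, p 0.37, adjusted p 1), and Ctsd (-0.44, SE 0.53, p 0.443, adjusted p 1). H2-Oa, H2-Ob, H2-Eb2 and H2-DMb2, further class II chains, and Ifi30, the lysosomal thiol reductase, were not kept.

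Ctss was at 0.53 and -0.22 in DEHP mice 1 and 4, against -1.19, -0.12 and 1.00 in vehicle mice 1, 2 and 4. All 8 accessory genes tested were lower in DEHP mouse 4 than in DEHP mouse 1 (median -0.74), against 41.1% of all genes. All 8 were also lower in vehicle mouse 1 than in vehicle mouse 2 (median -0.79, against 38%) and than in vehicle mouse 4 (median -1.08, against 35.3%). Between vehicle mice 2 and 4, 5 of the 8 were lower in mouse 2, while Ctsb (-0.04), Ctsd (0.03) and Mr1 (0.06), a class I-like molecule, did not pass. Of all genes tested, 57.4% passed in that comparison in either direction, so this count lies near the share of all genes. Their median by mouse was 0.42 and -0.49 in DEHP mice, against -0.54, 0.17 and 0.54 in vehicle mice. Cd74 was high and low in the same mice, with DEHP mouse 1 and vehicle mouse 4 high and DEHP mouse 4 and vehicle mouse 1 low, whereas H2-DMb1 was highest in DEHP mouse 4.

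**Figure D5:**
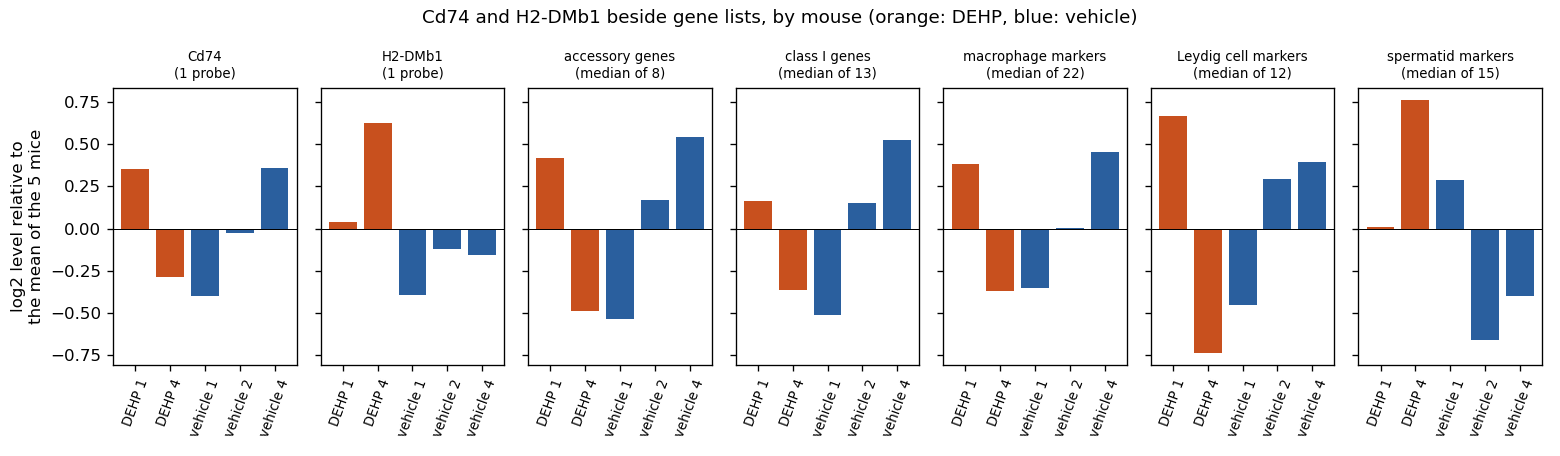
Log2 level (0 is the mean over 5 mice) for Cd74 and H2-DMb1 (1 probe each) and the median of 5 gene lists, DEHP mice (orange) left of vehicle mice (blue). Cd74, accessory genes, class I genes and macrophage and Leydig cell markers are above 0 in DEHP mouse 1 and vehicle mouse 4 and below 0 in DEHP mouse 4 and vehicle mouse 1; H2-DMb1 and the spermatid markers are highest in DEHP mouse 4.

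Factors that act on the X and Y boxes followed. Of 10 genes of the class II transcription complex 8 were tested, 3 above and 5 below 0, with a median difference of -0.11 and none called. The lowest p went to Zxdc, a zinc finger cofactor of CIITA in human cells (-0.22, SE 0.28, adjusted p 1), and Nfya, a subunit of the Y box factor NF-Y (-0.43, SE 0.57, adjusted p 1). Rfx5, a subunit of the X box factor, and Nfyc were not kept. All 10 interferon gamma signalling genes were tested, since this cytokine induces Ciita, and 5 lay above and 5 below 0 (median -0.06). Its lowest p were those of Ifngr2, a receptor chain (-0.30, SE 0.23), and Irf8, an immune transcription factor (-0.68, SE 0.60), each with an adjusted p of 1. Ifng itself was at 0.78 and -0.32 in DEHP mice, against -0.34, -0.32 and 0.20 in vehicle mice. It was near the detection limit, well above background in at most 6 of 12 DEHP and 4 of 12 vehicle readings at any probe.

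Class I presentation, the parallel route that shows peptides from inside the cell, had 13 of 17 genes tested, 7 above and 6 below 0 with a median of 0.04. Calr, a chaperone of class I loading, was at -0.05 and -0.67 in DEHP mice, against 0.40, 0.31 and 0.01 in vehicle mice, and the difference was -0.60 (SE 0.27, p 0.0692, adjusted p 1). H2-D1, a class I heavy chain, followed at 0.49 (SE 0.30, adjusted p 1). The list median by mouse was 0.17 and -0.36 in DEHP mice, against -0.51, 0.15 and 0.53 in vehicle mice. Of 7 co-stimulation genes 3 were tested (median -0.02), with Cd83 at -0.38 (SE 0.38) and Cd274, the ligand PD-L1, at -0.02 (SE 0.18). Cd86 and Cd40, hallmarks of activated presenting cells, were well above background in 0 DEHP and 0 vehicle readings.

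Markers of class II-bearing cells were read beside the members. Of 25 macrophage markers 22 were tested, 7 above and 15 below 0 in DEHP minus vehicle (median -0.06, none called). Their median by mouse was 0.38 and -0.37 in DEHP mice, against -0.35, 0.00 and 0.46 in vehicle mice. Their summed signal was 72600 to 145000 in DEHP and 73600 to 152000 in vehicle mice, and the defining markers Adgre1 and Csf1r were well above background in all readings, Ptprc in 12 DEHP and 10 vehicle readings. Adgre1 was at 0.55 and -0.97 in DEHP mice, against -0.78, 0.16 and 1.05 in vehicle mice. Cd74 was thus high and low in the same mice as the macrophage list, whose part in its values was not tested. The lowest p of the list went to Aif1 (0.55, SE 0.29, adjusted p 1) and Cd68 (0.16, SE 0.18, adjusted p 1).

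Markers of other leukocytes were detected in part. Of 8 dendritic cell markers 2 were tested, Itgax (0.20, SE 0.19) and Xcr1 (-0.04, SE 0.20), and Flt3 was well above background in 3 DEHP and 0 vehicle readings. Of 7 B cell markers 3 were tested (median -0.03), led by Ms4a1 (0.21, SE 0.18) and Cd79b (-0.19, SE 0.24). Of 7 T cell markers 5 were tested (median 0), led by Cd8b1 (0.54, SE 0.24) and Cd3d (0.37, SE 0.28), both well above background in all readings, and Cd3e was at -0.00 (SE 0.19). All of these had an adjusted p of 1. The other T cell markers were well above background in fewer readings, counted at the best probe of each. In DEHP and vehicle readings these were 8 and 8 for Cd3e, 6 and 9 for Lck and 5 and 8 for Cd8a. For Cd4 they were 0 and 3, and for Cd3g 0 and 0. Among the B cell markers they were 7 and 2 for Ms4a1, 10 and 12 for Cd79b and 5 and 8 for Ebf1. For Cd79a, Pax5 and Blk they were 0 and 0. Ms4a1 was thus called mostly in DEHP readings, which limits what its difference shows. The summed signal was 187 to 218 in DEHP and 177 to 205 in vehicle mice for dendritic cell markers, 276 to 329 in DEHP and 292 to 339 in vehicle mice for B cell markers, and 1440 to 1720 in DEHP and 1090 to 1260 in vehicle mice for T cell markers.

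The cells that make up the captured tissue also moved with the mice. Leydig cell markers had a median of 0.67 and -0.73 in DEHP mice, against -0.46, 0.29 and 0.40 in vehicle mice, and a summed signal of 68300 to 202000 in DEHP and 83400 to 201000 in vehicle mice. Of the 12 tested, 2 lay above and 10 below 0 (median difference -0.19), and the lowest p went to Hsd17b3 (0.57, SE 0.38, p 0.184), the testosterone-forming enzyme, and Ren1 (-0.40, SE 0.31, p 0.241). Spermatid markers had a median of 0.01 and 0.76 in DEHP mice, against 0.29, -0.66 and -0.40 in vehicle mice, and 14 of 15 lay above 0 (median difference 0.66), with the lowest p for Prm1 (1.00, SE 0.29, p 0.0139) and Tnp1 (1.15, SE 0.38, p 0.0255). Their summed signal was 741000 to 908000 in DEHP and 433000 to 613000 in vehicle mice. H2-DMb1 and the median of this list were both highest in DEHP mouse 4. In vehicle mouse 1, where H2-DMb1 was lowest, the list median was 0.29. Only Prm1 (-0.13), Tnp1 (-0.32) and Odf2 (-0.35) of the list lay below 0 in that mouse, and all its other genes lay above 0. The part of spermatid RNA in the H2-DMb1 difference was not tested. Sertoli cell markers had a median difference of -0.31, led by Cst9 (-0.66, SE 0.26, p 0.0485) and Sox9 (-0.32, SE 0.18, p 0.128). Endothelial markers had a median of -0.09, led by Kdr (0.37, SE 0.23, p 0.164) and Flt1 (0.39, SE 0.33, p 0.284). Peritubular myoid markers had a median of -0.86, led by Cnn1 (-0.86, SE 0.41, p 0.0829) and Myl9 (-0.99, SE 0.68, p 0.196). These 10 genes had a limma adjusted p of 1.

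Genes with the most similar course over the 5 mice were found by the mean absolute difference of mouse values. Nearest to H2-DMb1 was Nr5a2, a nuclear receptor (0.013, against a median of 0.348 over all genes). Its values were 0.03 and 0.60 in DEHP mice, against -0.39, -0.11 and -0.14 in vehicle mice. Nearest to Cd74 was Acad8 (0.0225, against 0.336), a mitochondrial enzyme of valine breakdown. Alg6, an enzyme of N-glycan assembly, came nearest to H2-Ab1 (0.012, against 0.23) and Anp32a to H2-Eb1 (0.0182, against 0.253). The mean of H2-Ab1, H2-Eb1 and Cd74 was 0.10 and -0.15 in DEHP mice, against -0.19, -0.01 and 0.26 in vehicle mice. Its 6 nearest genes were Pnrc1, H2-Q2, P2ry14, Rsad2, Atp6v0e2 and Hif1a, at 0.0196 to 0.026 against a median of 0.255. With 5 mice such nearness is a description only.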

How the data were processed

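Spot intensity (mean signal and local background in each channel) was deposited as scanned with Feature Extraction 9.5.1.1 on two-colour Agilent arrays, per the file headers. The same files hold processed intensity and a log10 ratio of Cy5 over Cy3, per the file headers; the ratio served to check directions. Deposited flags of 0 or 1 give the calls for background, saturation and outliers. The authors' deposited value table holds log2 ratios, with a filter and normalization that no source used here gives; the submitters' processing notes name limma. Its rows carry no probe name and were matched to spots by file position, chosen because it made the columns correlate with the scanner ratios, so the size of that correlation is no separate check. Matched this way, the columns ran as DEHP over vehicle (r 0.915 to 0.993, medians -0.06 to 0.00). It held H2-DMb1 alone of the member probes, with 8 values.

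Here R 4.3.3 with limma 3.58.1 was used: normexp (offset 50), loess with control spots at weight 0, outlier spots left out (0.332% to 0.604% per array), spots of a probe averaged, and least squares to 5 mouse values and a dye effect. This offset compresses differences of dim probes. A probe was kept if called well above background in 50% or more of the readings of 2 or more mice (21193 of 41174), and a gene was its brightest kept probe. Of the tested genes 10548 were named by RefSeq accession, 1894 by current symbol, 971 by older symbol and 2414 as in the file. limma's lmFit and eBayes compared the groups over the 5 mice and single mice on the 12 arrays, with Benjamini-Hochberg adjustment. The numbers of arrays and mice limit the precision. Functions were tested on simulated arrays. The named genes were all members and H2-Ea, from each list the 2 of lowest p where none was called, defining markers, and the nearest genes over 5 mice; a marker that this rule takes is not reported here. Members and lists were chosen with earlier results of these data known. Alternatives covered background, normalization, filter, probes per gene, unit of replication, dye, slide, left-out mice and the authors' table.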

Additional observations from a re-analysis of the deposited data

How the results depend on the processing

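The count of genes past the threshold in DEHP minus vehicle was 0 under every alternative run but 1; it was also 0 with each mouse left out in turn. Treating the 12 arrays as independent gave 2124 genes, H2-DMb1 among them (0.56, adjusted p 0.0046), but that setting counts 5 animals as 12. Leaving out mice moved H2-DMb1 from 0.26 to 0.85, Cd74 from -0.27 to 0.38, H2-Ab1 from -0.10 to -0.02 and H2-Eb1 from -0.23 to -0.01; Cd74 turned to -0.27 without DEHP mouse 1 and to -0.13 without vehicle mouse 1. A left-out DEHP mouse leaves 1, assumed to vary like the others.

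With the mouse number as a replicate block the count was 0, and the differences were 0.61 for H2-DMb1, 0.05 for Cd74, -0.07 for H2-Ab1 and -0.16 for H2-Eb1. Deviations from the group means correlated across genes at -0.73 for DEHP 1 with vehicle 1 and -0.56 for DEHP 4 with vehicle 4. The deviations of DEHP 1 and DEHP 4 are equal and opposite, so these correlations are not separate checks. They also carry the differences in captured tissue between mice, so they cannot decide whether equal numbers mark paired mice. Such pairing was not tested.

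Between single mice, 5 values turned sign: for H2-Ab1, vehicle 2 minus vehicle 4 with no background correction (0.094) and DEHP 4 minus DEHP 1 with processed signals (-0.085); for H2-Eb1, vehicle 2 minus vehicle 4 with processed signals (0.64); for H2-DMb1, vehicle 2 minus vehicle 4 with the array median only (-0.36) and in the authors' deposited table (-0.044). The cause was not tested. Signals near background limit all members but H2-DMb1: with processed signals DEHP 4 minus DEHP 1 was -2.03 for Cd74, against -0.64. Calls between single mice that ended or arose under an alternative stand beside their results; in addition vehicle 2 minus vehicle 4 for H2-DMb1 passed with a dye effect per slide (0.14, adjusted p 0.0318) and, turned, with the array median only (adjusted p 0.0279), and DEHP 4 minus DEHP 1 for H2-Ab1 with the array median only (0.22, adjusted p 0.0332).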

Other observations

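The array holds further probes whose description names a class II antigen, singled out after their values were seen. The clone 9530028C05, described in the files as similar to the E beta chain, was well above background in all 24 readings. Its log2 level was 0.67 and -1.25 in DEHP mice 1 and 4, against -0.90, 0.79 and 0.69 in vehicle mice 1, 2 and 4. The DEHP minus vehicle difference was -0.48 (SE 0.75, limma adjusted p 1), and the mice of the 2 groups overlapped. Its course over the mice was unlike that of the H2-Eb1 probe itself, at -0.03 and -0.14 in DEHP mice, against -0.14, 0.00 and 0.30 in vehicle mice. The clone B230308N11Rik was well above background in 1 DEHP reading and 0 vehicle readings.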
